A study of Mus musculus with 17 samples.

Results

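The genes described here encode neuronal microtubule regulators: Mapt, Map1a, Map1b, Map2, Map4 and Map6, which code for microtubule-associated proteins (MAPs), and Stmn1, Stmn2, Stmn3 and Stmn4, which code for stathmins. They were taken by symbol from the count table, and all 10 were present among its 24498 genes. Mapt is the mouse gene for tau. Microtubules are polymers of tubulin that support axons and dendrites and carry transport along them. Structural MAPs such as tau bind along the polymer and stabilize it, whereas stathmins bind free tubulin dimers and favour disassembly. In Alzheimer's disease (AD), tau leaves microtubules, aggregates and can seed aggregation of tau in recipient neurons. The question asked of these genes was whether seeding the hippocampus with human tau protein was accompanied by a change in the endogenous microtubule genes.

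Bulk poly(A) RNA sequencing was available for 17 libraries of mouse dorsal hippocampus slices, which hold CA1, CA2, CA3 and the dentate gyrus. All mice were wild type (WT) or constitutive Acss2 knockouts (KO), in which the enzyme that makes acetyl-CoA from acetate is lost in every cell type. Mice were injected at 6 months of age in the right dorsal hippocampus with tau purified from human AD brain (Tau) or with phosphate-buffered saline (PBS), and tissue was taken 6 months later. Each of the 4 combinations of genotype and injection had 3 libraries in males. Females gave 3 KO Tau and 2 WT Tau libraries, and no female PBS group was included. Libraries are called by the number in their label.

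Libraries held 14183131 to 22463635 counts, so that 3 counts, the limit that a count of 0 allows, were 0.134 to 0.212 CPM (counts scaled to a library total of 1000000). Acss2 lay between 3.07 and 8.81 CPM in the 9 KO libraries and between 44.0 and 54.6 CPM in the 8 WT libraries, so every library matched its genotype label. Defining markers of hippocampal neurons were present in every library, and no marker of any of the 15 cell type or region lists was at 0. Several male libraries stood apart. Male KO Tau 711 was the highest or lowest of the 12 male libraries for 42.4% of the 15098 genes tested, male KO PBS 752 for 33.3%, male KO PBS 751 for 25.3% and male KO Tau 712 for 23.9%. In the other 8 male libraries this share was 3.40% to 15.7%. Summed CPM of 5 neocortex markers was 892 in 752, 631 in 712 and 636 in 713, against 175 to 384 in the other 9 male libraries. Striatum markers summed to 649 CPM in 752 and to at most 215 CPM in the other male libraries, and choroid plexus markers to 3889 CPM in 713 and to at most 524 CPM elsewhere. For the larger differences of the MAP and stathmin genes described here, values without the libraries that moved them are given below. In bulk tissue, fewer cells of a type and less RNA per cell cannot be told apart.

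Per kilobase of merged exons, Stmn3 was the most abundant of the genes in male WT PBS hippocampus, with 415.5 ± 42.5 CPM per kb (SD, n = 3). Map1a (136 ± 8.06), Stmn4 (108 ± 7.40), Stmn1 (91.4 ± 6.85) and Mapt (82.2 ± 1.42 CPM per kb) came next. Stmn2 (68.1 ± 7.56) and Map1b (67.4 ± 0.525 CPM per kb) overlapped each other over their libraries, and no other neighbours in the order did. Map2 (62.8 ± 1.65), Map4 (47.2 ± 4.80) and Map6 (15.9 ± 1.06 CPM per kb) closed the order. All 10 genes passed the filter on low counts by a wide margin, so none was near the detection limit. In GRCm38, Mapt lies at chr11:104231390-104332090, Map1a at chr2:121289600-121310832, Map1b at chr13:99421446-99516540, Map2 at chr1:66175273-66442583, Map4 at chr9:109931460-110083955 and Map6 at chr7:99267447-99337137. Stmn1 lies at chr4:134468320-134473843, Stmn2 at chr3:8509360-8561606, Stmn3 at chr2:181306459-181314500 and Stmn4 at chr14:66344296-66361680. Map1b and Stmn3 are on the minus strand, and counts were summed over the exons of each gene. The exon models were long for Map2 (16449 bases), Map1b (15846) and Map4 (15143) and short for Stmn3 (1136), Stmn4 (1916) and Stmn1 (1922).

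The promoters of Map2, Map1a and Map4 are shown because these were the genes that stood highest in the divergent library 711. Each window covers the 250 bases upstream of the transcript start in RefSeq (GRCm38.p6), and capitals mark the GC box letters GGGCGG or their reverse complement CCGCCC. These starts differ from the gene coordinates above, which came from the GENCODE annotation. By those coordinates the Map4 window shown lies inside the gene, and the Map2 and Map1a windows run past the gene start. The Map2 window (chr1:66175079-66175328, plus strand) held 5 matches.
Map2: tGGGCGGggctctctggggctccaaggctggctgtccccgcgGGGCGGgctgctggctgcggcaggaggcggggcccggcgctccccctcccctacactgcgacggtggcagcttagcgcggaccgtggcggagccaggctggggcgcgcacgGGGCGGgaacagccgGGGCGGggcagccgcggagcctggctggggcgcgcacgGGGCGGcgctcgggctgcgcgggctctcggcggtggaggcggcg
The Map1a window (chr2:121289352-121289601, plus strand) held 3 matches that do not overlap. A further match, which begins at the last base of the middle marked one, was not counted or capitalized.
Map1a: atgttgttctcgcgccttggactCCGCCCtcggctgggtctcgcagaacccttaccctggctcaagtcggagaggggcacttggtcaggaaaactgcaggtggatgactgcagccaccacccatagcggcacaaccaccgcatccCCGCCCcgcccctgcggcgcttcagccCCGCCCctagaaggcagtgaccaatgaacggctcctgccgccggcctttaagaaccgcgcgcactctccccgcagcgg
The window of the upstream of the 2 Map4 starts (chr9:109931524-109931773, plus strand) held 3 matches, and that of the downstream start held 0.
Map4: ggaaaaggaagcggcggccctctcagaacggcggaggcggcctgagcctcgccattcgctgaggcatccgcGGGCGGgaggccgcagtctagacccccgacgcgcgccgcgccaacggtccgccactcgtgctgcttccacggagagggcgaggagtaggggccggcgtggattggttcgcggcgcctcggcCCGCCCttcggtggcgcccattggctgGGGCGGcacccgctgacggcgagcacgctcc
GGGCGG occurred on either strand in 32.7% of 32851 upstream windows of the same length, so matches were common among all genes. The table matched 5 of the 10 genes, and of the other 2 that matched, Map1b held 1 match and Stmn3 held 0. No entry was given for Mapt, Map6, Stmn1, Stmn2 and Stmn4. A match is a description of the letters and does not show that a factor binds there.

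In wild-type mice, each of the 10 genes differed between seeded and PBS hippocampus by less than its standard error (SE) in the fit of all male libraries. None of the 10 genes passed a false discovery rate of 0.05 in the edgeR quasi-likelihood test of male WT Tau against male WT PBS, and none had an unadjusted p under 0.05. Among all 15098 genes tested, the same test called 0 (0%), and 281 (1.86%) had an unadjusted p under 0.05. DESeq2 also called 0 genes. The groups overlapped for all 10 members, whereas they did not overlap for 12.2% of all genes. The median size of the log2 fold change was 0.03 over the 10 genes and 0.09 over all genes, and 3 members were higher and 7 lower under Tau.

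Mapt, the endogenous tau gene, was at 609, 619 and 630.1 CPM in male WT PBS and at 602, 614 and 637 CPM in male WT Tau. The 3 Tau values enclosed those of the PBS libraries. The log2 fold change was -0.02 (SE 0.10), a fold of 0.987 with a 95% interval of 0.852 to 1.14 (edgeR quasi-likelihood test, adjusted p = 0.9999). The interval took its spread from all male groups, including the less even KO libraries. In an edgeR fit of only the WT Tau and WT PBS libraries, Mapt was at -0.01 (SE 0.06, adjusted p = 0.969). The SE was smaller there for Map2 (0.06) and Stmn1 (0.08) as well. Differences within the wider interval could not be resolved in the fit of all male libraries, with 3 libraries a group.

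Of the other structural MAPs, Map2, the main dendritic MAP, was at 1016, 1064 and 1018 CPM in male WT PBS and 1089, 1041 and 1024 CPM in male WT Tau. Map1b, which is prominent in growing axons, was at 1062, 1063 and 1077 CPM under PBS and 1076, 1142 and 1111 CPM under Tau. Their log2 fold changes were 0.01 (SE 0.21) for Map2 and 0.04 (SE 0.11) for Map1b, both smaller than the SE of the fit of all male libraries. For Map1b the groups overlapped only narrowly, with means of 1067 ± 8.32 CPM under PBS and 1110 ± 33.4 CPM under Tau (SD). Map1a, the MAP1 family member of mature neurons, was at 1573, 1764 and 1629.8 CPM under PBS and 1523, 1692 and 1676 CPM under Tau, with a log2 fold change of -0.04 (SE 0.13). Map4, which is widely expressed outside neurons, was at 717, 787 and 642 CPM under PBS and 763, 847 and 678 CPM under Tau, with a log2 fold change of 0.08 (SE 0.25). Map6, which makes microtubules stable to cold, had the largest difference of the 10 genes, with 139, 142 and 157 CPM under PBS and 137, 119.8 and 143 CPM under Tau. Its log2 fold change of -0.14 (SE 0.15, interval -0.47 to 0.18) was no larger than its error in the fit of all male libraries. In an edgeR fit of only the WT Tau and WT PBS libraries it was -0.13 (SE 0.08, adjusted p = 0.646).

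The stathmins were as close. Stmn1, the founding cytosolic stathmin, was at 177, 162 and 188 CPM in male WT PBS and 186, 155 and 176 CPM in male WT Tau. Stmn2, which is associated with axon growth and regrowth, was at 390.2, 335 and 419 CPM under PBS and 422, 358 and 373 CPM under Tau. Both pairs of groups overlapped over most of their range. Stmn3, a membrane-associated neuronal stathmin, was at 457, 433 and 526 CPM under PBS and 521, 435 and 466 CPM under Tau. Stmn4, also neuronal and membrane-associated, was at 194, 222 and 205 CPM under PBS and 197, 205 and 217 CPM under Tau. The log2 fold changes ranged from -0.04 (Stmn1, SE 0.35) to -0.0031 (Stmn2, SE 0.15), and the interval was widest for Stmn1, at -0.81 to 0.73.

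**Figure D1:**
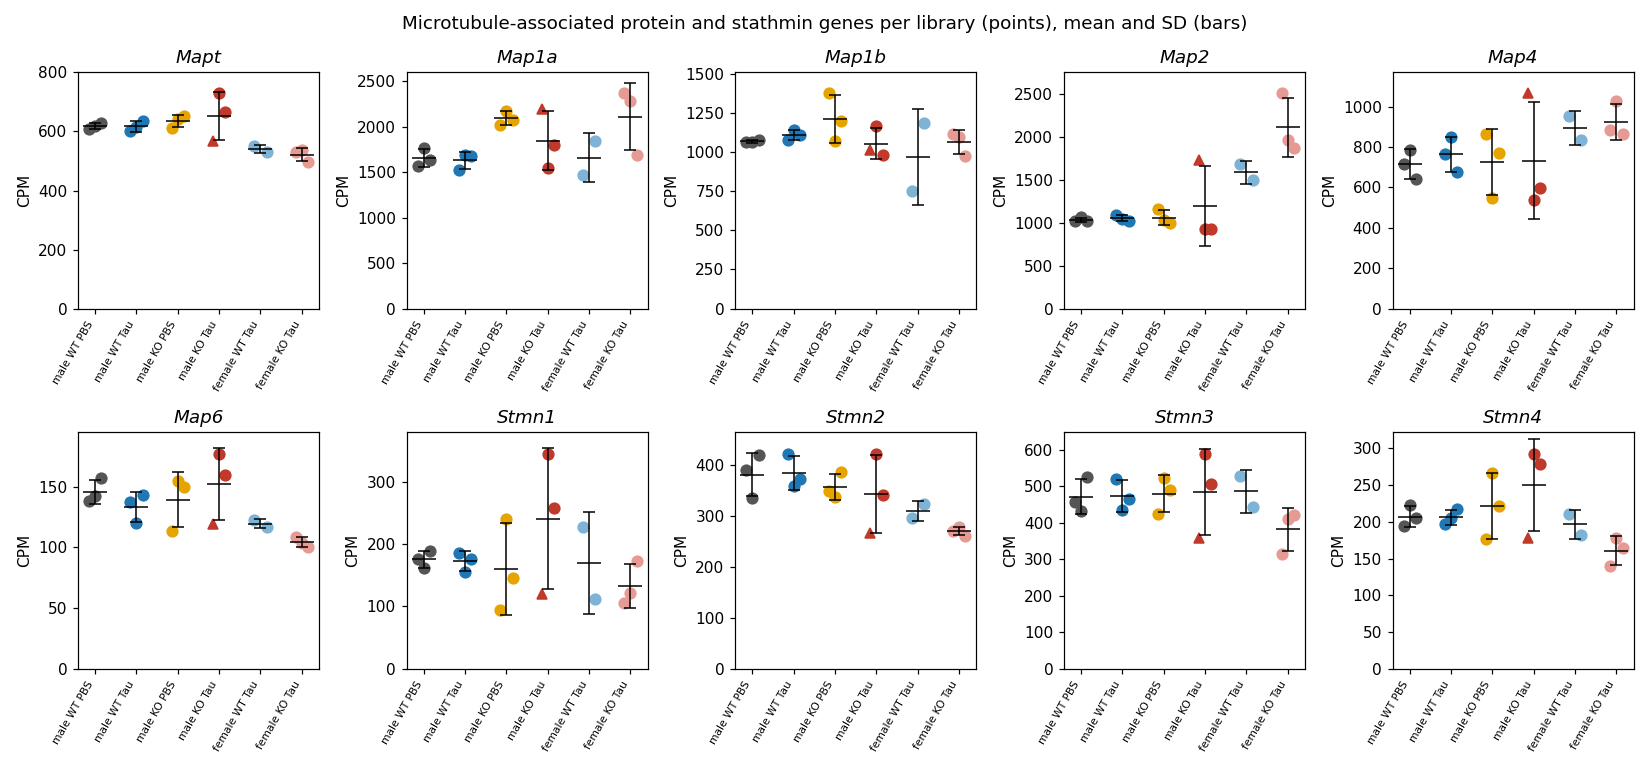
CPM of each of the 10 genes (vertical axis, from 0) in every library of the 6 groups. Points are libraries, horizontal lines are group means, vertical bars are 1 SD to each side and the triangle is male KO Tau 711, which was outside the other 11 male libraries for Mapt, Map1a, Map2, Map4, Stmn2 and Stmn3, while the male WT PBS and male WT Tau points overlapped for every gene.

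In Acss2 KO mice, the differences between seeded and PBS hippocampus were larger in the median and less even than in WT, and none of the 10 genes passed the false discovery rate. No member passed the interaction test given below, so a different response to seeding was not shown. The edgeR test of male KO Tau against male KO PBS called 0% of all genes. An unadjusted p under 0.05 was reached by 1201 genes (7.95%), with 0 of the 10 members among them. DESeq2 on the same libraries called 37 genes, and again no member. Under Tau, 4 members were higher and 6 lower, and the median size of the log2 fold change was 0.12 against 0.14 over all genes. In WT these medians were 0.03 and 0.09, so the size was larger in KO over all genes too. The libraries of the groups overlapped for all 10 members, while they did not overlap for 9.01% of all genes.

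Mapt was at 613, 641 and 652 CPM in male KO PBS and at 567, 729 and 665 CPM in male KO Tau (711, 712 and 713). Library 711 was the lowest and 712 the highest of all male libraries for this gene. The log2 fold change was -0.0049 (SE 0.10, interval -0.22 to 0.21, adjusted p = 0.993 by edgeR), and without 711 it was 0.08 (SE 0.07, adjusted p = 0.688). Averaged over both genotypes, the Mapt difference between Tau and PBS in males was -0.01 (SE 0.07, interval -0.16 to 0.14), and 0.031 without 711. In that average 0% of all genes passed by edgeR and 5.38% had an unadjusted p under 0.05, with no member among them, and DESeq2 called 1 gene that was no member.

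Stmn1 showed the largest difference of the 10 genes in KO mice, and also the largest spread. It was at 94.2, 241 and 146 CPM in male KO PBS (751, 752 and 753) and at 120.4, 345 and 257 CPM in male KO Tau (711, 712 and 713). The highest library exceeded the lowest 2.56-fold within KO PBS and 2.87-fold within KO Tau. The log2 fold change of 0.54 (SE 0.35, interval -0.23 to 1.31) had an adjusted p of 0.709 by edgeR. With 1 library left out it was 0.19 without 712, 0.28 without 751, 0.86 without 711 and 0.96 without 752, and none of these passed. The 3 libraries with most Stmn1 (752, 712 and 713) were also those with the highest neocortex marker sums among the male libraries, and their sums of 4 CA1 pyramidal cell markers (192, 325 and 319.8 CPM) were below the 427 to 554 CPM of the other 9. The part of the sampled region in the Stmn1 values was not tested.

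Map1b was the member with the smallest p in KO mice. It was at 1374, 1067 and 1197.5 CPM in male KO PBS and 1015, 1167.5 and 979.7 CPM in male KO Tau, and libraries of the groups overlapped. The log2 fold change was -0.25 (SE 0.11, unadjusted p = 0.0502, adjusted p = 0.627 by edgeR), and -0.14 without KO PBS 751, the highest library. Map1a was at 2023.5, 2175 and 2077 CPM in male KO PBS and 2196, 1544 and 1803 CPM in male KO Tau, so that 711 was above all KO PBS libraries and 712 and 713 were below them. Its log2 fold change was -0.22 (SE 0.13, adjusted p = 0.688), and without 711 it was -0.37 (SE 0.10, adjusted p = 0.329) and without 712 -0.10. The KO PBS libraries also enter the comparison with WT PBS below, so opposite signs of Map1a and Map1b there are not independent of these values. For KO Tau against WT PBS, the log2 fold change was 0.17 (SE 0.13) for Map1a and -0.01 (SE 0.11) for Map1b.

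Map2 and Map4 depended on library 711 in the KO Tau group. Map2 was at 1154, 1029 and 996 CPM in male KO PBS and at 1732, 932 and 927 CPM in male KO Tau. Map4 was at 863, 545 and 769 CPM in male KO PBS and at 1065, 536 and 597 CPM in male KO Tau. In 711, Map2 was 1.86 times and Map4 1.88 times the mean of 712 and 713. The log2 fold change of Map2 was 0.13 (SE 0.21) with 711 and -0.24 (SE 0.09, adjusted p = 0.393) without it, and that of Map4 was -0.03 (SE 0.25) with 711 and -0.41 (SE 0.18, adjusted p = 0.429) without it. The direction of Map2 therefore turned with a single library, and neither value passed the test.

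Map6 was at 113, 155 and 149.9 CPM in male KO PBS and 119.5, 177 and 159 CPM in male KO Tau. Stmn2 was at 349, 337 and 386 CPM in male KO PBS and 267, 421 and 341 CPM in male KO Tau. Library 711 was the lowest KO Tau library for both genes. Stmn3 was at 425, 524 and 491 CPM in male KO PBS and 358, 589.7 and 508 CPM in male KO Tau. Stmn4 was at 177, 266 and 222 CPM in male KO PBS and 178, 293 and 279 CPM in male KO Tau. For these genes the log2 fold changes ranged from -0.11 (Stmn2, SE 0.15) to 0.13 (Stmn4, SE 0.18).

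Whether the response to seeding differed between genotypes was tested as an interaction. The interaction ranged over the 10 genes from -0.29 for Map1b (SE 0.16, unadjusted p = 0.0979) to 0.58 for Stmn1 (SE 0.50) on the log2 scale, and every adjusted p by edgeR was 0.996 or above. Among all genes 0 (0%) passed, and 631 (4.18%) had an unadjusted p under 0.05, with no member among them; DESeq2 also called 0 genes. The intervals were wide, from -0.51 to 1.67 for Stmn1 and from -0.28 to 0.31 for Mapt. Single libraries moved the larger values: the Stmn1 interaction was 0.23 without 712, 0.32 without 751, 0.90 without 711 and 1.00 without 752, that of Map1b was -0.18 without 751, and that of Map2 turned from 0.12 to -0.25 without 711.

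**Figure D2:**
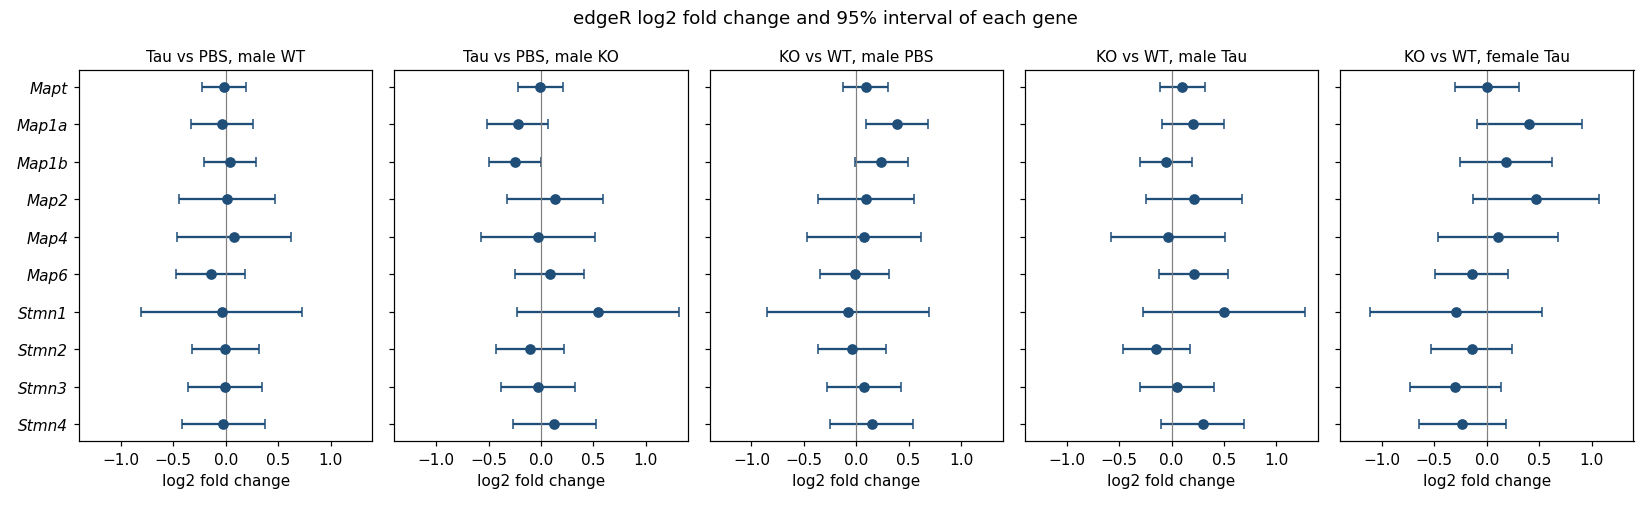
Log2 fold change (horizontal axis) of the 10 genes in 5 comparisons, with points for the edgeR estimate and bars for its 95% interval. The Mapt interval under Tau ran from -0.23 to 0.19 in WT and from -0.22 to 0.21 in KO males, and the interval of Map1a in KO PBS against WT PBS, from 0.10 to 0.68, was the one among the male comparisons that did not include 0.

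Without seeding, Map1a differed most between Acss2 KO and WT males. Male KO PBS libraries (2023.5, 2175 and 2077 CPM) were all above male WT PBS libraries (1573, 1764 and 1629.8 CPM). The log2 fold change was 0.39 (SE 0.13), a fold of 1.31 with an interval of 1.07 to 1.61, with an unadjusted p of 0.0139 and an adjusted p of 0.999 by edgeR. The difference did not pass the correction. It was the only one of the 10 genes with an unadjusted p under 0.05, against 4.42% of all genes, and the only one whose groups did not overlap, against 11.7% of all genes. Map1b was next, with a log2 fold change of 0.24 (SE 0.11, unadjusted p = 0.0597), which was 0.13 without 751. The other 8 genes lay between -0.08 (Stmn1) and 0.15 (Stmn4). The test called 1 gene (0.00662%), Acss2, and 0 members. Reads in the 272 exon bases that Map1a shares with Ppip5k1 on the opposite strand, 2.24% of its exons, can be told apart only if the library kept strand.

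Under seeding, KO and WT males were compared directly. With all 3 KO Tau libraries, none of the 10 genes passed (0.00662% of all genes did, again Acss2 alone), none had an unadjusted p under 0.05 (4.71% of all genes), and the groups overlapped for each member (12.6% of all genes did not). The largest differences were those of Stmn1, with a log2 fold change of 0.50 (SE 0.35, adjusted p = 0.927), and of Stmn4, with 0.30 (SE 0.18, adjusted p = 0.927). For KO Tau against WT PBS they were 0.46 (SE 0.35, adjusted p = 0.848) and 0.27 (SE 0.18, adjusted p = 0.826), where 0.00662% of all genes passed, 6.33% had an unadjusted p under 0.05 and 14.4% did not overlap. No member was among any of these. These comparisons share the male KO Tau libraries, so their values are not independent.

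The stathmin values depended on which KO Tau libraries entered. In the fit of all male libraries, leaving out 712 lowered the KO against WT Tau difference of Stmn1 to 0.16 and of Stmn4 to 0.18, and the KO Tau against WT PBS differences to 0.12 and 0.16. Without 711, in an edgeR fit of only the WT Tau and KO Tau libraries, Stmn1 was higher in KO with a log2 fold change of 0.82 (SE 0.13, adjusted p = 0.0220) and Stmn4 with 0.49 (SE 0.07, adjusted p = 0.0197). That fit called 4.88% of all genes tested, and 2 of the 10 members. DESeq2 on the same 5 libraries called 7.13% of all genes and 4 members: Stmn1 (0.82, adjusted p = 8.95e-07), Stmn4 (0.48, adjusted p = 1.21e-06), Map6 (0.35, adjusted p = 0.0259) and Map4 (-0.41, adjusted p = 0.00442). In this comparison 42.3% of all genes did not overlap between groups once 711 was left out. Among the members, Mapt, Map6, Stmn1 and Stmn4 lay above and Map2 and Map4 below the WT Tau libraries. With the spread shared over all male groups, the same 2 KO Tau libraries gave Stmn1 an SE of 0.29 and an adjusted p of 0.352, and no member passed. When 712 or 713 was left out in place of 711 in fits of only these groups, neither tool called a member. Stmn1 was then 0.16 (adjusted p = 0.945) and 0.45 (adjusted p = 0.9998) in edgeR, where 0.0067% and 0% of all genes passed, against 0.0778% and 0.0311% in DESeq2.

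Against WT PBS, the 2 libraries 712 and 713 gave Stmn1 a log2 fold change of 0.78 (SE 0.12, adjusted p = 0.0184) and Stmn4 0.46 (SE 0.08, adjusted p = 0.0272) in edgeR on these groups alone, where 4.15% of all genes passed and 40.2% did not overlap. DESeq2 called 5.33% of genes there and 3 members, Stmn1 (0.78, adjusted p = 4.28e-07), Stmn4 (0.47, adjusted p = 6.45e-05) and Map4 (-0.33, adjusted p = 0.0368). Without 712 or without 713, no member passed there by either tool, with 0.00671% and 0% of all genes called by edgeR and 0.27% and 0.0364% by DESeq2. Against KO PBS, no member passed without 711 by either tool, with adjusted p values of 0.916 for Stmn1 in edgeR (0% of all genes called) and 0.984 in DESeq2 (0.0725% called). Summed neocortex markers were 631 and 636 CPM in 712 and 713, against 232 to 384 CPM in the WT Tau and 352 to 374 CPM in the WT PBS libraries, so the groups compared did not overlap in these markers. KO PBS 752, which was not seeded, had 892 CPM of neocortex markers and 241 CPM of Stmn1. Female WT Tau 331, by contrast, had 227 CPM of Stmn1 with 211 CPM of neocortex markers. The part of the sampled region in the stathmin difference was not tested.

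**Figure D3:**
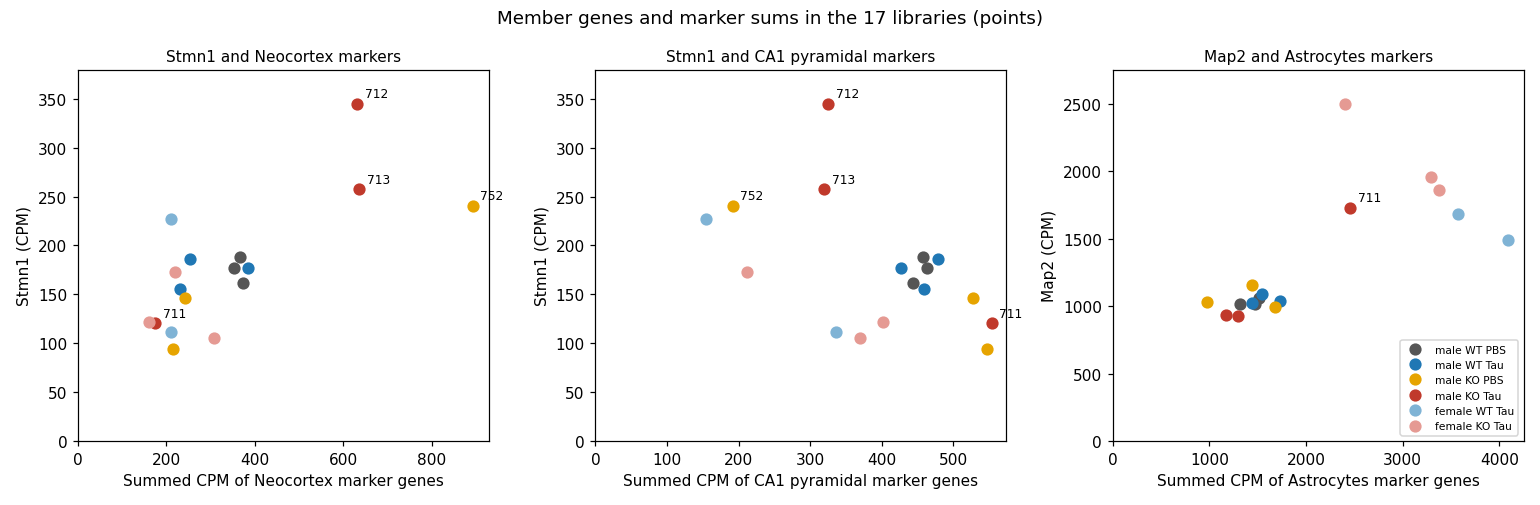
Each point is 1 of the 17 libraries, with the CPM of Stmn1 (left and middle) or Map2 (right) on the vertical axis and the summed CPM of neocortex, CA1 pyramidal or astrocyte markers on the horizontal axis. Libraries 712, 713 and 752 had Stmn1 at 345, 257 and 241 CPM together with neocortex sums of 631, 636 and 892 CPM, while male KO Tau 711, also labelled, had 1732 CPM of Map2 and 2454 CPM of astrocyte markers.

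Library 711 was the highest or lowest male library for 6 of the 10 members, and for 42.4% of all genes tested. Map1a (2196 CPM), Map2 (1732 CPM) and Map4 (1065 CPM) were above the highest of the other 11 male libraries, which were 2175, 1154 and 863 CPM. Mapt (567 CPM), Stmn2 (267 CPM) and Stmn3 (358 CPM) were below the lowest, 602, 335 and 425 CPM. The 3 genes above have exon models of 12166 bases or more. Map1b, with 15846 bases, was at 1015 CPM in 711, inside the 980 to 1374 CPM of the other male libraries. The summed CPM of 5 neuron markers in 711 was 5296 against 7342 to 9973 in the other male libraries. Astrocyte markers summed to 2454 CPM against 978 to 1733, and oligodendrocyte markers to 7683 CPM against 3087 to 6024 in the other male libraries. The slope of log2 CPM on log2 gene length was -0.02 in 711 and ranged from -0.10 to 0.09 over all libraries. Whether tissue content, RNA quality or gene length set these values was not tested.

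The spread of the members followed the groups. Their median coefficient of variation was 6.75% in male WT PBS and 7.25% in male WT Tau, against 7.39% and 8.12% over all genes tested. It was 11.6% in male KO PBS, against 14.3% over all genes, and 23.3% in male KO Tau, against 15.7%. In the male KO Tau group alone the members varied more than the median gene. Library 711 was the highest or lowest male library for 6 of the 10 members, against 42.4% of all genes tested. For 712 this was 6 members against 23.9% of all genes, and for 713 it was 2 against 9.58%.

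Without female PBS libraries, the effect of seeding could not be compared across sexes, and only the genotypes under Tau could be. In females, none of the 10 genes passed the test of KO Tau (3 libraries) against WT Tau (2 libraries), every adjusted p by edgeR was 0.997 or above, and 1 gene (0.00649%) passed, which was Acss2. An unadjusted p under 0.05 was reached by 2.89% of all genes and no member. Map2 was at 1681 and 1492 CPM in female WT Tau and at 2504, 1961 and 1864 CPM in female KO Tau, with a log2 fold change of 0.47 (SE 0.27, interval -0.13 to 1.07). Map6 (122 and 117 against 109, 104 and 100.2 CPM), Stmn2 (295 and 323 against 271, 278 and 262 CPM), Stmn3 (529 and 445 against 315, 411 and 420.3 CPM) and Stmn4 (211 and 182 against 140.3, 179 and 164 CPM) were lower in each KO library. Groups that did not overlap made up 5 of 10 members and 16% of all genes.

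Mapt in females was at 549.7 and 530.2 CPM in WT Tau and 531, 536 and 495 CPM in KO Tau, with a log2 fold change of 0.0010 (SE 0.14, interval -0.31 to 0.31). Stmn1 was at 227 and 111 CPM in female WT Tau and 106, 121 and 173 CPM in female KO Tau, and the groups overlapped. Map1a was at 1471 and 1848 CPM in WT Tau and at 2367, 2283 and 1688 CPM in KO Tau. Map1b was at 753 and 1183 CPM in WT Tau and 1117, 1095 and 976 CPM in KO Tau, and Map4 was at 952 and 835 CPM in WT Tau and 882, 1028 and 866 CPM in KO Tau. Groups overlapped for all of these genes.

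The genotype difference under Tau was also compared between sexes. Stmn4 had the smallest p of the members, with a difference of -0.53 on the log2 scale (female minus male, SE 0.25, unadjusted p = 0.0604, adjusted p = 0.978 by edgeR), and Stmn1 had the largest difference, -0.80 (SE 0.50). None of the members passed, 0% of all genes did, and 2.94% had an unadjusted p under 0.05. DESeq2 called 1 gene, which was no member.

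Female and male Tau libraries differed in level for some members, which is given as a description because sex and the number range of the library labels cannot be told apart. Mapt was lower in all 5 female libraries (lowest 495, median 530.6, highest 549.7 CPM) than in all 6 male Tau libraries (567 to 729 CPM). Across all genes, 10.5% did not overlap between these libraries. Map2 was at 1492 to 2504 CPM in females, and at 927 to 1089 CPM in male Tau libraries other than 711, which at 1732 CPM lay within the female range. Neuron markers summed to 4744 to 6283 CPM in females, and astrocyte markers to 2403 to 4095 CPM. Among the male libraries only 711 lay within these ranges, with 5296 CPM of neuron and 2454 CPM of astrocyte markers. The part of tissue content in these levels was not tested.

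**Figure D4:**
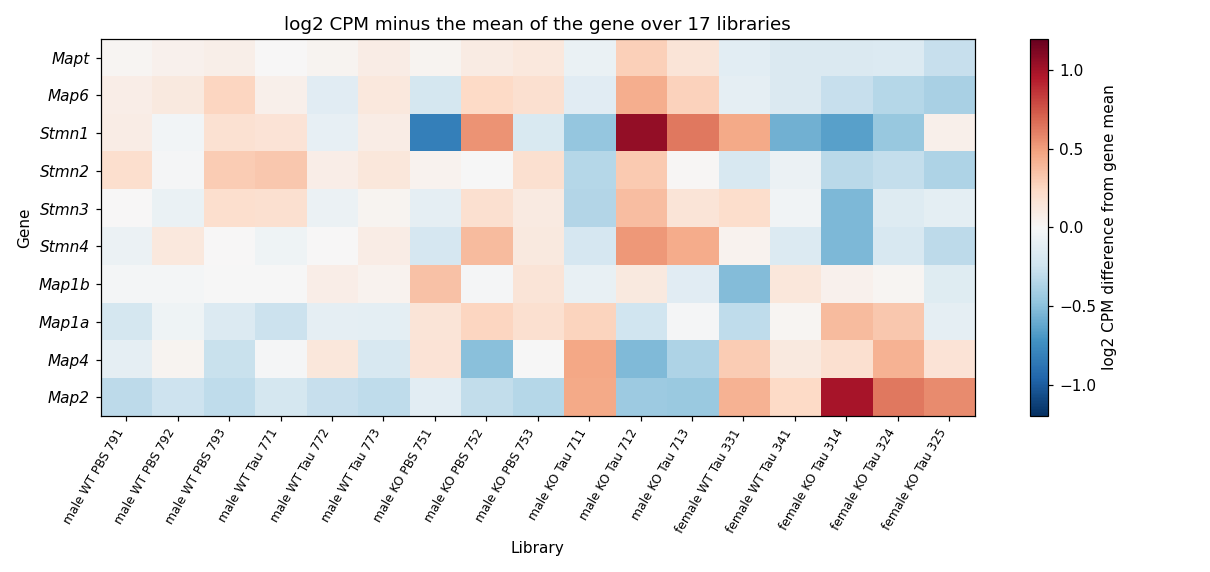
Heat map of log2 CPM minus the gene's mean over the 17 libraries, with the 10 genes as rows and libraries as columns ordered by group. Map2 and Map4 share high values in 711 and in the female libraries, Mapt is low there, and Stmn1 is high in 752, 712, 713 and female WT Tau 331.

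Across the 17 libraries the members fell into opposing patterns, given as a description since the libraries share groups and tissue content. Log2 CPM of Mapt followed that of Map6 (Pearson r = 0.905, and 0.813 over the 12 male libraries), and that of Stmn1 followed Stmn4 (0.823 and 0.882). Map2 followed Map4 (0.743 and 0.779). Map2 ran opposite to Mapt (-0.878 and -0.745) and to Stmn2 (-0.867 and -0.738), and Map4 opposite to Map6 (-0.859 and -0.875). Among 15044 genes tested in both fits, those most like Mapt were Anapc2 (r = 0.959), Tssc1 (0.958) and Klhdc3 (0.947), and those most like Stmn2 were Myadm (0.942), Smap1 (0.938) and Alg2 (0.935). Over the 12 male libraries the order differed, with D17H6S53E (0.938), Txnl4a (0.929) and Tssc1 (0.929) for Mapt and Eif2b1 (0.970), Ndufa10 (0.952) and Smap1 (0.951) for Stmn2.

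A set of further lists covered the rest of the microtubule system. None of 27 further structural and plus-end MAPs, 16 tubulins, 26 tubulin-modifying and severing enzymes, 23 motors and 5 neurofilament genes passed the false discovery rate in any of the 9 comparisons by edgeR. In WT mice, 11 of the 27 further MAPs were higher and 16 lower under Tau, with a median log2 fold change of -0.03, and 5 of the 16 tubulins were higher and 11 lower, with a median of -0.07. For the motors, 7 were higher and 16 lower, with a median of -0.04, and the median over all genes was -0.01. None of the genes in these lists had an unadjusted p under 0.05 there. Of the 26 tubulin-modifying and severing enzymes, 9 were higher and 17 lower, with 1 of each at an unadjusted p under 0.05, against 1.86% of all genes.

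In KO mice, 4 of the 27 further MAPs were higher under Tau and 23 lower, with a median of -0.15, and 3 of the lower had an unadjusted p under 0.05, a share to be read against 7.95% of all genes. The motors gave 8 higher and 15 lower (median -0.12), the tubulins 8 and 8, and the modifying and severing enzymes 18 and 8. Under PBS, the KO against WT comparison gave 24 of the 27 MAPs and 20 of the 23 motors higher in KO, with medians of 0.11 and 0.14 against 0.01 over all genes. The KO PBS libraries are common to both comparisons, which alone gives opposite signs to any deviation of that group. Neurofilament subunits, the intermediate filaments of axons, had a median of -0.40 under Tau in KO mice (1 higher, 4 lower). An unadjusted p under 0.05 by edgeR was reached by 1 of the lower, against 7.95% of all genes. In KO PBS against WT PBS the median was 0.33 (4 higher, 1 lower). There 3 of the higher had such a p, against 4.42% of all genes. Nefm was uneven in male KO PBS, at 345 ± 174 CPM (SD), against 219 ± 25.0 CPM in male WT PBS. List values with a library left out were not computed.

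The highest and lowest gene of each list by log2 fold change of Tau against PBS, averaged over genotypes in males, are named here. Among MAPs these were Mapre1, an end-binding protein, at 0.14, and Mtcl1 at -0.27. Among tubulins they were Tuba1c at 0.60 and Tuba8 at -0.32, and among modifying enzymes Ttll6 at 0.79 and Ttll3 at -0.18, both of the tubulin tyrosine ligase-like family. Tuba1c and Ttll6 were scarce, with means of 0.876 and 0.219 CPM in male WT PBS. Among motors they were Kif5b, a kinesin-1 heavy chain, at 0.12 and Kif3c at -0.21, and among neurofilament genes Prph at 0.05 and Nefm at -0.24. The smallest adjusted p of these genes was 0.888, shared by Mapre1, Tuba1c, Ttll6 and Kif3c, by edgeR.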

How the data were processed

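Poly(A) RNA of dorsal hippocampus from 17 mice was sequenced in 6 groups, and groups came from the sample labels. The authors aligned reads with STAR 2.5.2 to mm10 (GRCm38), sorted them with SAMtools 1.1 and counted them over exons with HTSeq 0.9.1 in reverse-stranded mode. The deposited values were raw counts per gene, unnormalized. The kit named in the labels (NEBNext Ultra II RNA) is not described there as keeping strand. Whether reads of a gene and an antisense partner can be told apart is therefore not known from the labels. Exon lengths and coordinates came from the GENCODE annotation of GRCm38, which matched 98.5% of symbols.

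Counts were tested in edgeR 4.0.16 by quasi-likelihood (glmQLFTest, R 4.3.3; TMM factors, filterByExpr with minimum count 10 and total 15, ~0 + group), two-sided, with Benjamini-Hochberg adjustment at 0.05 over all genes tested. Male contrasts came from 1 fit of 12 male libraries, because the study used males for these comparisons, and female contrasts from 1 fit of the 11 Tau libraries. Whether libraries of a group differ as animals or in handling cannot be separated, so p-values measure the spread between these samples. CPM was scaled to library totals, and log2 CPM used a prior count of 0.5. Intervals are 95% and cover library spread, and floors cover counting error only. No pair of the 136 pairs of libraries had identical counts. The pipeline was tested on simulated data.

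Alternatives were DESeq2 1.42.0, RLE factors, no filter, all 17 libraries, only the groups compared, length and GC offsets (splines, 5 degrees of freedom) and each library left out. Fits of only the groups compared without male KO Tau 711, 712 or 713 were added after seeing the data, since the study lists 2 male KO Tau samples and does not name them. All 10 genes were named. Of the other lists, any gene that passed and the highest and lowest by the averaged Tau effect were named, and for pattern likeness the 3 genes most correlated with Mapt and with Stmn2. The genes and lists were chosen with earlier results of these data known. Promoter windows came from RefSeq.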

Additional observations from a re-analysis of the deposited data

How the results depend on the processing

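No paired analysis was possible because the groups share no replicate numbers. All 10 genes were recomputed in all 9 comparisons, 90 results. Every one kept its side of the threshold under DESeq2, RLE factors, no filter, all 17 libraries, length and GC offsets, only the groups compared (run for the 6 comparisons of a pair of groups), and every single library left out of the edgeR fit. In fits of only the groups compared without 1 male KO Tau library, the threshold was crossed without 711 for Stmn1 and Stmn4 (edgeR and DESeq2) and for Map4 and Map6 (DESeq2), and by no member without 712 or without 713. The cause of each change below was not tested. With offsets the turned values were Mapt 0.029 and Map1a 0.042 for Tau in WT, Mapt 0.044 and Map4 0.085 for Tau in KO, Mapt 0.037, Map6 0.051 and Stmn4 -0.0026 for Tau averaged, Stmn2 0.021 for KO under PBS, Map1b 0.011 and Stmn3 -0.060 for KO under Tau, Map1b 0.054 and Stmn3 -0.079 for KO Tau against WT PBS, Mapt -0.053 and Map4 -0.072 for female KO, and Map4 -0.033 and Stmn2 -0.066 for sex by genotype. Without the filter they were Stmn2 0.0054 and Stmn3 0.00022 for Tau in WT, Mapt -0.0023 for the genotype by Tau interaction, Mapt -0.0014 for female KO, and Stmn2 -0.0014 for sex by genotype. In fits of only the groups compared they were Stmn2 0.0070 and Stmn3 0.0020 for Tau in WT, and Mapt 0.0020 for Tau in KO. With DESeq2 they were Stmn2 0.0038 for Tau in WT, and Stmn2 -0.010 for sex by genotype. With RLE factors they were Stmn2 0.0040 for Tau in WT, and Stmn2 -0.0099 for sex by genotype. With all 17 libraries no sign turned. In fits of only the groups compared without 1 male KO Tau library, values are given for edgeR and then DESeq2, or once where they round to the same number. Without 711 they were Mapt 0.079 and 0.080, Map2 -0.25 and -0.24, Stmn2 0.037 and 0.039, Stmn3 0.14 for Tau in KO, Map2 -0.16, Stmn2 0.0054 and 0.0020 for KO under Tau, and Map1b 0.0093 and 0.012, Map2 -0.15, Map4 -0.34 and -0.33, Stmn2 0.00017 and 0.0026 for KO Tau against WT PBS. Without 712 they were Map4 0.18 and 0.15, Map6 -0.027 and -0.040, Stmn4 -0.0018 in DESeq2 for Tau in KO, Map4 0.16, Stmn3 -0.10 for KO under Tau, and Map6 -0.045, Stmn3 -0.11 for KO Tau against WT PBS. Without 713 they were Map4 0.12 and 0.098 for Tau in KO, Map1b 0.0087 in DESeq2, Map4 0.097 and 0.11 for KO under Tau, and Map1b 0.044 and 0.046 for KO Tau against WT PBS.

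A single left-out library turned the sign of 47 of the 90 results, and no member passed in any such edgeR fit. For Tau in WT the ranges were Mapt -0.044 to 0.0018, Map1a -0.086 to 0.022, Map2 -0.014 to 0.044, Map4 -0.0013 to 0.16, Stmn1 -0.095 to 0.036, Stmn2 -0.078 to 0.072, Stmn3 -0.079 to 0.079 and Stmn4 -0.078 to 0.044. For Tau in KO the ranges were Mapt -0.084 to 0.081, Map2 -0.24 to 0.29, Map4 -0.41 to 0.16, Map6 -0.037 to 0.22, Stmn2 -0.27 to 0.040, Stmn3 -0.19 to 0.14 and Stmn4 -0.0031 to 0.31. For Tau averaged the ranges were Mapt -0.049 to 0.031, Map2 -0.12 to 0.15, Map4 -0.17 to 0.12, Map6 -0.090 to 0.039, Stmn2 -0.14 to 0.018, Stmn3 -0.096 to 0.067 and Stmn4 -0.013 to 0.15. For the genotype by Tau interaction the ranges were Mapt -0.070 to 0.10, Map2 -0.25 to 0.28, Map4 -0.49 to 0.077, Stmn2 -0.28 to 0.043 and Stmn3 -0.19 to 0.15. For KO under PBS the ranges were Map4 -0.085 to 0.24, Map6 -0.099 to 0.10, Stmn1 -0.50 to 0.18, Stmn2 -0.12 to 0.034 and Stmn4 -0.0048 to 0.28. For KO under Tau the ranges were Map2 -0.16 to 0.37, Map4 -0.41 to 0.16, Stmn2 -0.31 to 0.0021 and Stmn3 -0.10 to 0.23. For KO Tau against WT PBS the ranges were Map1b -0.077 to 0.040, Map2 -0.15 to 0.39, Map4 -0.34 to 0.24, Map6 -0.046 to 0.21 and Stmn3 -0.11 to 0.22. For female KO the ranges were Mapt -0.025 to 0.074, Map1b -0.13 to 0.58 and Stmn1 -0.70 to 0.27. For sex by genotype the ranges were Map1b -0.076 to 0.63, Map4 -0.054 to 0.53 and Stmn2 -0.14 to 0.16.

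Counts over all genes moved more. DESeq2 called 37 genes for Tau in KO, 1 for Tau averaged, 2 for KO under PBS, 4 for KO under Tau, 15 for KO Tau against WT PBS and 1 for sex by genotype. All 17 libraries gave 3 for KO Tau against WT PBS, and only the groups compared gave 0 for female KO, where leaving out a library gave 0 to 1 (0 without female KO Tau 324 or female WT Tau 331). In fits of only the groups compared, edgeR and DESeq2 without 711 called 0 and 14 genes for Tau in KO, 733 and 1378 for KO under Tau, and 620 and 1029 for KO Tau against WT PBS. Without 712 they called 1 and 15 genes for KO under Tau and 1 and 52 for KO Tau against WT PBS, and without 713 they called 0 and 6, and 0 and 7. With 3 libraries a group and the spread shared over all male groups, the interval of Mapt for Tau in WT, the narrowest of the members, still spanned folds of 0.852 to 1.14.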
